A study of Mus musculus with 6 samples.

Results

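Markers of duct cells and of injured acinar cells were examined in the pancreas of mice that lack OCaR1, the product of Tmem63a. The set held 9 genes chosen by name: Sox9, Krt7, Krt19, Krt8, Krt18, Epcam, Cd44, Spp1 and Clu. All 9 were found among the 11478 genes that the authors tested, of 12016 genes in their table. The study compared 3 male OCaR1-/- mice with 3 male wild-type mice, all 3 weeks old and untreated, and RNA of the pancreas was sequenced without culture. The labels' protocol spells the wild-type strain C57Bl6/N, the strain field gives C56Bl6/N for all 6 mice, and the sources used here do not say how the null allele was made.

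The deposited table gives 1 FPKM value per genotype (a level corrected for library size and transcript length, so genes can be compared). Each value combines the 3 mice of a genotype, so no SD of single mice can stand beside any level, and read depth is unknown. A gene is called where the authors' Cuffdiff comparison of the genotypes gave a q-value under 0.05. Only called genes are said to rise or fall. Fold changes are knockout over wild type, so a positive log2 value is a higher knockout level. Tmem63a itself stood at 4.91 FPKM in OCaR1-/- and 18.3 FPKM in wild-type mice (log2 fold change -1.90, q = 0.00152 in the authors' deposited table). Acinar transcripts dominated both groups, since 31 listed digestive enzyme genes held 63.0% of the summed FPKM in the knockout and 66.5% in wild type. The other 10 genes of this list of 41 were not analysed here, so these shares and the rescaling described below rest on the 31.

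The exocrine pancreas is built of acini, which make digestive enzymes, and of ducts, which carry the juice and add bicarbonate. Duct cells are marked by the transcription factor SOX9, by the simple-epithelium keratins and by osteopontin, whereas healthy acinar cells hold mainly keratins 8 and 18. When acinar cells are injured they can lose enzyme expression and take on duct features, a change in which SOX9, keratins 7 and 19, CD44 and clusterin are used as markers. None of these markers is private to the epithelium: CD44 is also carried by leukocytes and stromal cells, osteopontin is also made by macrophages, and the keratins are also found in mesothelium.

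Of the 9 genes, 2 rose in the knockout, Sox9 and Cd44, and none fell by the Cuffdiff test (4 had an unadjusted p under 0.05, of which Krt18 was lower). The background in the same table was 7.54% of tested genes called, 4.20% higher and 3.35% lower. At q under 0.01 and at q under 0.1 the count was also 2, beside 4.55% and 9.75% of tested genes. Both called genes lie below 5 FPKM, and of the 6 genes with at least 5 FPKM in either genotype 0 were called by Cuffdiff (2 at an unadjusted p under 0.05), beside 8.53% of all genes at that level. Log2 fold changes ran from -0.21 (Krt18) to 0.83 (Cd44), with a median of 0.21 beside a median of -0.03 over all tested genes. In 7 of the 9 genes the knockout value was the higher one, and over all tested genes with a fold change this was so in 44.8%. Both values depend on the scaling. Rescaling FPKM values to equal sums outside the digestive enzymes lowers every log2 fold change by 0.19, list medians included. The set's median was then 0.020 beside -0.23 over all tested genes, and 5 of the 9 genes were higher in the knockout beside 21.9% of all. The rescaled log2 fold changes of the called genes were 0.37 for Sox9 and 0.64 for Cd44. The genes were picked with earlier results of these data known, so these counts describe the set and do not test it.

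The promoters of 3 genes are shown as description, and no result here rests on their sequence. Cd44 is the called gene with the larger fold change. Krt8 and Krt18 are partner genes, neither of them called, whose knockout values lay on opposite sides of wild type. RefSeq's table (build GRCm38.p6) held a promoter for 6 of the 9 genes, namely Cd44, Epcam, Krt7, Krt8, Krt18 and Spp1. Each window runs from 250 bases before the annotated start to 50 bases after it and is written 5′ to 3′ on the gene's strand. Capitals mark TATAA (TATA box) and GGGCGG (GC box) on either strand, with overlapping matches joined. The window of Cd44 lies at chr2:102901616-102901915 on the minus strand, that of Krt8 at chr15:102004293-102004592 on the minus strand, and that of Krt18 at chr15:102027966-102028265 on the plus strand.
Cd44: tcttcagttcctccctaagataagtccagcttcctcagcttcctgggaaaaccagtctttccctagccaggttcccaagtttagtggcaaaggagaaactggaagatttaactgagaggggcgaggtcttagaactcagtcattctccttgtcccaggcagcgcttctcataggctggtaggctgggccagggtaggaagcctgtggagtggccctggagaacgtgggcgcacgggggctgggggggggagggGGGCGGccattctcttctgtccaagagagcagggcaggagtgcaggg
Krt8: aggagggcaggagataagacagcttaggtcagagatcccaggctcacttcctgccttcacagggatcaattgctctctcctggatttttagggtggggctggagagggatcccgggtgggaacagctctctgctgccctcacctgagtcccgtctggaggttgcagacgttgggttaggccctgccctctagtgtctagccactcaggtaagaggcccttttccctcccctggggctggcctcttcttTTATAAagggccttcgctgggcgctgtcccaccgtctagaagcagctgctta
Krt18: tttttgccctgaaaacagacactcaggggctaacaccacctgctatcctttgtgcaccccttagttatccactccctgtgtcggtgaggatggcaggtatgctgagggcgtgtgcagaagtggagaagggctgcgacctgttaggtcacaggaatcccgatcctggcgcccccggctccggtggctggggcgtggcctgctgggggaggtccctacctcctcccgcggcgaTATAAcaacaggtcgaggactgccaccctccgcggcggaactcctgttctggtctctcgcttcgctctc
The Krt8 and Krt18 windows each hold a TATAA match near the start, and the Cd44 window holds a GGGCGG match just after it. TATAA was found in 3 of the 6 windows (Krt8, Krt18 and Spp1) and in 24.9% of all 32851 windows of this length in the table. The letters were counted at any position. Relative to the start, the match begins at -19 in Krt18 and at -211 in Spp1. In Krt8 the matches begin at -2 and -1 and run across the start. GGGCGG was found in another 3 (Cd44, Epcam and Krt7) and in 35.7% of all windows. The start used for the Krt7 window lies 1360 bases from the edge of the deposited gene. The Notch effector motif TGGGAA (RBPJ) was present in Cd44 and Krt8 and in 25.6% of all windows. No window of the 6 held TGANTCA (AP-1, 7.81% of all windows), GGAATG (TEAD, 14.7%) or AACAAT (Sox, 10.7%), all searched on both strands. G and C made up 58.0% of the Cd44 window, 58.0% of that of Krt8 and 61.3% of that of Krt18, beside a median of 52.7% over all windows.

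The levels of the 9 genes spanned a wide range, as the plot of levels by genotype shows. In wild type the order from low to high was Cd44, Sox9, Krt7, Krt19, Epcam, Krt8, Spp1, Krt18 and Clu, and the highest level was 292 times the lowest. In the knockout this ratio was 183. Clu lay above 99.3% of tested genes in wild type and Cd44 above 13.4%. Without values of single mice, it cannot be said which neighbours in this order differ beyond their spread. The knockout order was the same, except that Sox9 and Krt7 stood level at 3.86 FPKM.

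**Figure D1:**
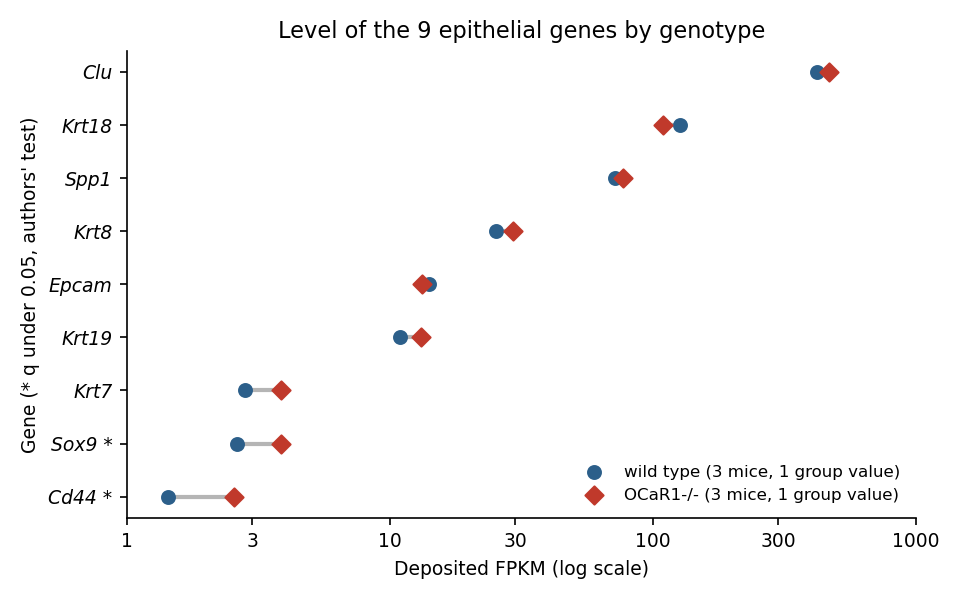
Deposited FPKM (horizontal, log scale) of the 9 genes in wild type (circles) and OCaR1-/- (diamonds), 1 group value of 3 mice each, ordered by the wild-type level; asterisks mark q under 0.05. The gaps are widest for Cd44, Sox9 and Krt7, the 3 lowest genes.

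Sox9, the transcription factor that maintains duct identity, rose. Sox9 (ENSMUSG00000000567, protein-coding, GRCm38 chromosome 11, 112782224 to 112787760) had 3.86 FPKM in OCaR1-/- and 2.61 FPKM in wild-type mice. This was 1.48-fold higher (log2 fold change 0.56, q = 0.00152 in the authors' deposited table), and 6.49% of genes had a higher log2 fold change. In whole tissue, more cells of a type and more RNA per cell cannot be told apart.

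The duct keratins Krt7 and Krt19 were not called. Krt7 (ENSMUSG00000023039, protein-coding, chromosome 15, 101411043 to 101430313), a type II keratin of duct epithelium, had 3.86 FPKM in OCaR1-/- and 2.82 FPKM in wild-type mice (log2 fold change 0.45, q = 0.434 in the authors' deposited table). Its level in both genotypes was close to that of Sox9, which was called at a log2 fold change of 0.56, and whether the 2 genes differ in their change was not tested. Krt19 (ENSMUSG00000020911, protein-coding, chromosome 11, 100140810 to 100148665), the type I keratin most used to mark ducts, had 13.1 FPKM in OCaR1-/- and 10.96 FPKM in wild-type mice (log2 fold change 0.26, q = 0.353 in the same authors' deposited table).

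Krt8 and Krt18, which pair as the filament of acinar and other simple epithelial cells, lay on opposite sides of wild type in the deposited values, and neither was called. Krt8 (ENSMUSG00000049382, protein-coding, chromosome 15, 101996711 to 102004342), the type II partner, had 29.4 FPKM in OCaR1-/- and 25.4 FPKM in wild-type mice, a log2 fold change of 0.21. Krt18 (ENSMUSG00000023043, protein-coding, chromosome 15, 102028216 to 102032026), the type I partner, had 109 FPKM in OCaR1-/- and 127 FPKM in wild-type mice, a log2 fold change of -0.21. After the rescaling outside the digestive enzymes the log2 fold changes were 0.020 for Krt8 and -0.41 for Krt18. Their unadjusted p-values in the authors' deposited table were 0.0348 and 0.0302, with q = 0.226 and q = 0.207. The genes are neighbours, 23.9 kb apart, on the strands shown with their promoters above.

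The Krt18 level was 3.71 times that of Krt8 in the knockout and 4.99 times in wild type. Krt19 stood at 3.396 times the level of Krt7 in the knockout and 3.89 times in wild type. Summed, the type II genes Krt7 and Krt8 had 33.3 FPKM in OCaR1-/- and 28.2 FPKM in wild-type mice, and the type I genes Krt18 and Krt19 had 122 and 138 FPKM. These sums and ratios come from group values and carry no test. With the other type I keratins of the table, Krt20 and Krt23, the type I sum was 134 FPKM in OCaR1-/- and 150 FPKM in wild-type mice.

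Reads of Krt8 can also match copies elsewhere. Of the 1909 stretches of 50 bases (the read length per the labels' protocols) in its longest coding transcript of GENCODE M21, 567 (29.7%) occur exactly in transcripts of another gene. Most of these, 514, lie in the processed pseudogene Krt8-ps on chromosome 7, and 53 in the overlapping noncoding gene Gm36026. For Krt18 the share was 0.720%, in 2 processed pseudogenes. The treatment of reads with several matches is not given in the sources used here. Therefore the Krt8 level and its ratio to Krt18 are uncertain to that extent. The part of these copies in the difference between genotypes was not tested.

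**Figure D2:**
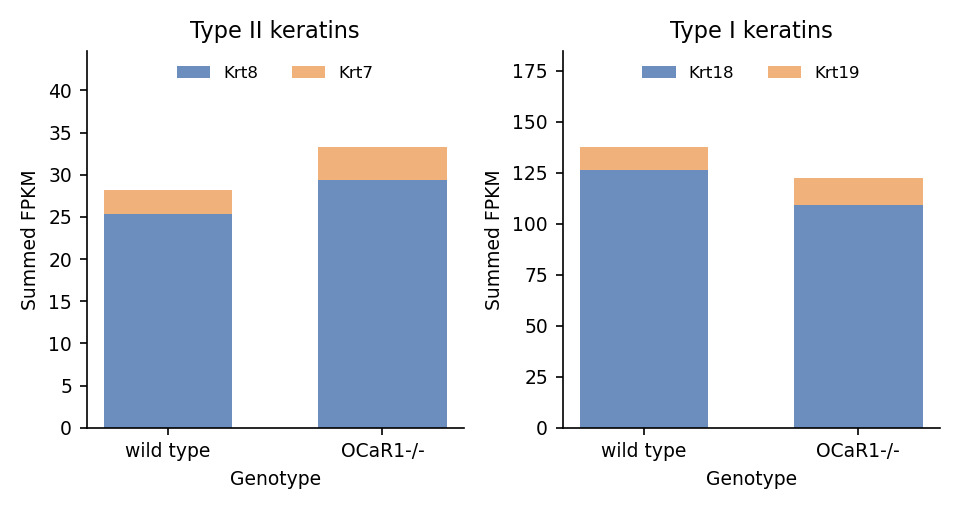
Summed FPKM (vertical, from 0) of the type II keratin genes Krt8 and Krt7 (left) and the type I genes Krt18 and Krt19 (right) in each genotype, 1 group value of 3 mice each. The type II sum is 33.3 FPKM in OCaR1-/- and 28.2 FPKM in wild type, and the type I sum is 122 and 138 FPKM.

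The adhesion molecules Epcam and Cd44 differed in their calls. Epcam (ENSMUSG00000045394, protein-coding, chromosome 17, 87635979 to 87651106), which encodes a homophilic adhesion protein of most epithelia, had 13.3 FPKM in OCaR1-/- and 14.1 FPKM in wild-type mice. Its log2 fold change was -0.09 (q = 0.791 in the authors' deposited table). Cd44 (ENSMUSG00000005087, protein-coding, chromosome 2, 102811141 to 102901665), the receptor for hyaluronan and osteopontin, had 2.56 FPKM in OCaR1-/- and 1.44 FPKM in wild-type mice. It rose 1.78-fold (log2 fold change 0.83, q = 0.00152 in the authors' deposited table), and 2.99% of genes had a higher log2 fold change. GENCODE M21 lists 9 Cd44 transcripts, and the gene total leaves the spliced forms undivided.

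The secreted proteins were the most abundant of the set apart from Krt18, and neither was called. Spp1 (ENSMUSG00000029304, protein-coding, chromosome 5, 104435118 to 104441050) encodes osteopontin, a ligand of CD44 and of integrins. It had 77.1 FPKM in OCaR1-/- and 72.0 FPKM in wild-type mice (log2 fold change 0.10, q = 0.781 in the authors' deposited table). Clu (ENSMUSG00000022037, protein-coding, chromosome 14, 65968483 to 65981548) encodes clusterin, an extracellular chaperone made by stressed epithelia. It had 469 FPKM in OCaR1-/- and 420 FPKM in wild-type mice (log2 fold change 0.16, q = 0.643 in the authors' deposited table). After the rescaling outside the digestive enzymes both log2 fold changes changed sign, to -0.095 for Spp1 and -0.035 for Clu. Of the Spp1 transcript's stretches of 50 bases 9.05% occur in Gm42793, an overlapping gene model. For Sox9, Krt19, Epcam, Cd44 and Clu the count of shared stretches was 0, and for Krt7 it was 9 of 4045.

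**Figure D3:**
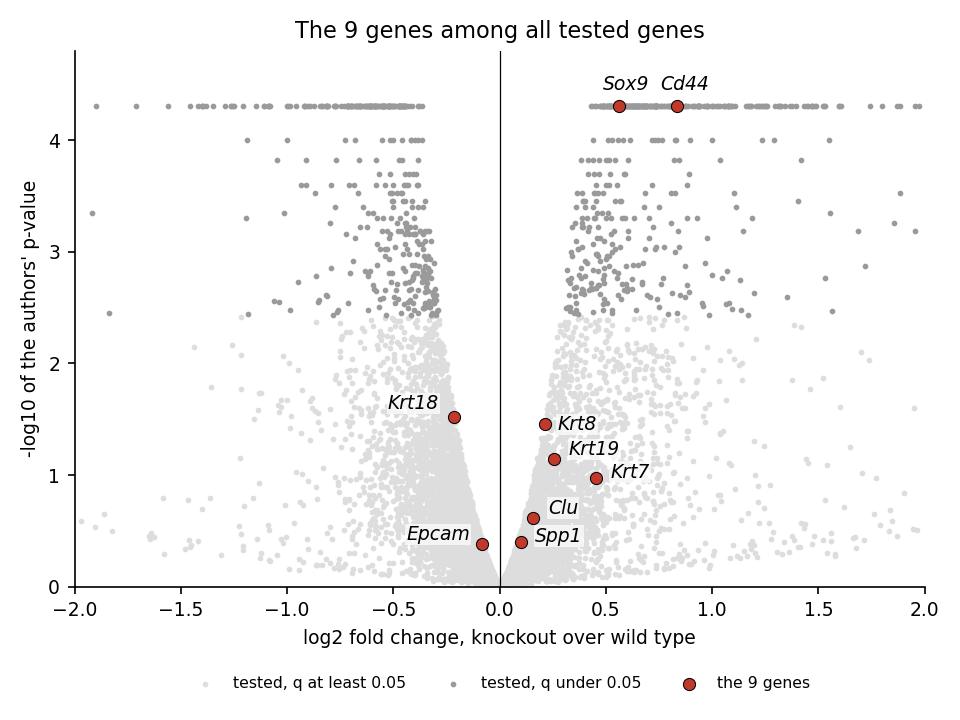
Log2 fold change, knockout over wild type (horizontal), and -log10 of the authors' p-value (vertical) for tested genes, with the 9 genes as labelled red points; genes past 2 in size on the horizontal axis (74) are not drawn. Sox9 and Cd44 sit at the smallest p of the table, 5e-05, which 394 genes share, and the other 7 lie below the called genes.

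The other genes of these pathways were described by the same calls, to be read against the 7.54% called in the whole table. In every gene of that table the larger of the 2 values was at least 1.00 FPKM. A gene under 1 FPKM in 1 genotype was therefore bound to be higher in the other. Among genes named below, this fixed the direction of Cldn4, Car2, Itga9, Sox7, Trem2, Mpeg1, Emr1, Ptprc, Cd79b and Retn (low in wild type). It also fixed that of Tcf7 and Alb (low in the knockout). Of 14 other duct genes tested, the authors' deposited table called 2, both higher, with a median log2 fold change of 0.19. Those called were Aqp1, a water channel gene of duct and endothelium (20.1 FPKM in OCaR1-/- and 14.7 FPKM in wild-type mice), and Cldn4, a tight junction gene (1.40 and 0.872 FPKM). Car2, the duct carbonic anhydrase, had 1.39 FPKM in OCaR1-/- and 0.780 FPKM in wild-type mice and just missed the threshold (q = 0.0533 in the authors' deposited table). Pkd2, a cilium channel gene, had 4.32 and 3.63 FPKM without a call. The remaining 4 genes of this list of 18, Cftr among them, were not analysed here.

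Epithelial adhesion genes, which include the partners of Epcam, had 1 of 19 called, Cd9, a tetraspanin gene (17.05 FPKM in OCaR1-/- and 12.6 FPKM in wild-type mice). Their median log2 fold change was 0.03, and the knockout value was higher in 11 of the 19 genes and lower in 8. F11r, a junction adhesion gene, had 33.7 and 23.3 FPKM (q = 0.057 in the authors' deposited table), and Cd24a, a surface protein gene of epithelial progenitors, had 69.4 and 57.0 FPKM (q = 0.057). Elf3, an epithelial transcription factor gene, had 4.95 and 3.13 FPKM without a call. Of 12 other keratin and desmosome genes, Ppl, the periplakin gene, was called higher (1.47 FPKM in OCaR1-/- and 1.05 FPKM in wild-type mice), and the median was -0.06. Pkp2 and Dsg2, both of the desmosome, had 3.28 and 8.78 FPKM in the knockout and 4.12 and 10.99 FPKM in wild type, and Krt23 had 3.76 and 4.26 FPKM.

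Notch and Hippo signalling lie upstream of Sox9 in duct cells. Of 12 Notch pathway genes the authors' deposited table called 1, Lfng, a modifier of the receptors that is expressed in acinar cells, which fell from 12.2 FPKM in wild type to 9.18 FPKM in the knockout. The receptor genes Notch3 (1.68 and 1.37 FPKM in knockout and wild type) and Notch2 (1.21 and 1.03 FPKM) and the target gene Hey1 (1.502 and 1.06 FPKM) were not called, and the median was -0.01. Of 15 Hippo pathway genes 0 were called by Cuffdiff and 1, Wwtr1 (2.46 and 1.99 FPKM), had an unadjusted p under 0.05. The median of this list was 0.10. Axl had 9.08 and 6.28 FPKM, Amotl1 5.84 and 4.95 FPKM, and Lats1 5.57 and 6.25 FPKM in knockout and wild type. Of 7 other Sox and fibroblast growth factor receptor genes 0 were called by Cuffdiff, and Sox18 (4.27 and 3.33 FPKM), an endothelial factor, alone had an unadjusted p under 0.05. The list's median was 0.21, and Sox17, Sox6 and Sox7 had 2.62, 1.08 and 1.06 FPKM in the knockout and 1.86, 1.24 and 0.918 FPKM in wild type.

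Genes of Egfr signalling and of the acinar-to-duct change had 7 called higher and 1 lower of 23 tested in the authors' deposited table, with a median of 0.06. Lgals3, the galectin-3 gene, rose 2.39-fold from 1.42 to 3.38 FPKM, Klf6, an early response factor gene, 1.60-fold, Vim, the mesenchymal filament gene, 1.496-fold from 46.5 to 69.7 FPKM, and Anxa3, an annexin gene, 1.40-fold. The other called genes were Anxa2, Cd14 and S100a11, which rose, and Lamb3, which fell. Several of these genes, among them Lgals3, Vim and Cd14, are also expressed by macrophages or stromal cells. Egfr itself had 5.54 FPKM in OCaR1-/- and 5.62 FPKM in wild-type mice. In 13 of the 23 genes the knockout value was the higher one and in 10 the lower. The lower ones include the ligand gene Tgfa (1.52 and 2.90 FPKM in knockout and wild type) and Myc (11.8 and 14.9 FPKM), both without a call. Egfr, Tgfa, Myc, Anxa2, Cd14, S100a11 and Lamb3 were chosen for mention after their values were seen.

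Partners of Cd44 and of the secreted members were called higher in several cases and never lower. Of 12 genes of hyaluronan metabolism and Cd44 binding, the authors' deposited table called 4 higher, with a median of 0.13. They were Cd74, the invariant chain of MHC class II (2.49-fold), Lyve1, the hyaluronan receptor gene of lymphatic vessels and some macrophages (1.78-fold), Msn, which links CD44 to actin (1.54-fold), and Itih5, a hyaluronan-binding protein gene (1.45-fold). Has1, Has2 and Has3, which make hyaluronan, were not analysed here. Among 9 integrin and matrix partners of Spp1, Fn1, the fibronectin gene, was called higher (23.9 FPKM in OCaR1-/- and 14.5 FPKM in wild-type mice), and the median was 0.31. Thbs1 had 3.96 and 3.19 FPKM, and the integrin genes Itgb1 and Itga9 had 30.6 and 1.63 FPKM in the knockout and 26.99 and 0.979 FPKM in wild type. Of 5 Clu partners, Apoe (1.55-fold) and the microglial and macrophage receptor gene Trem2 (3.69-fold, from 0.392 to 1.45 FPKM) rose, and the median was 0.23. Vldlr had 6.92 FPKM in OCaR1-/- and 11.6 FPKM in wild-type mice and Sort1 6.31 and 7.41 FPKM, both without a call.

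**Figure D4:**
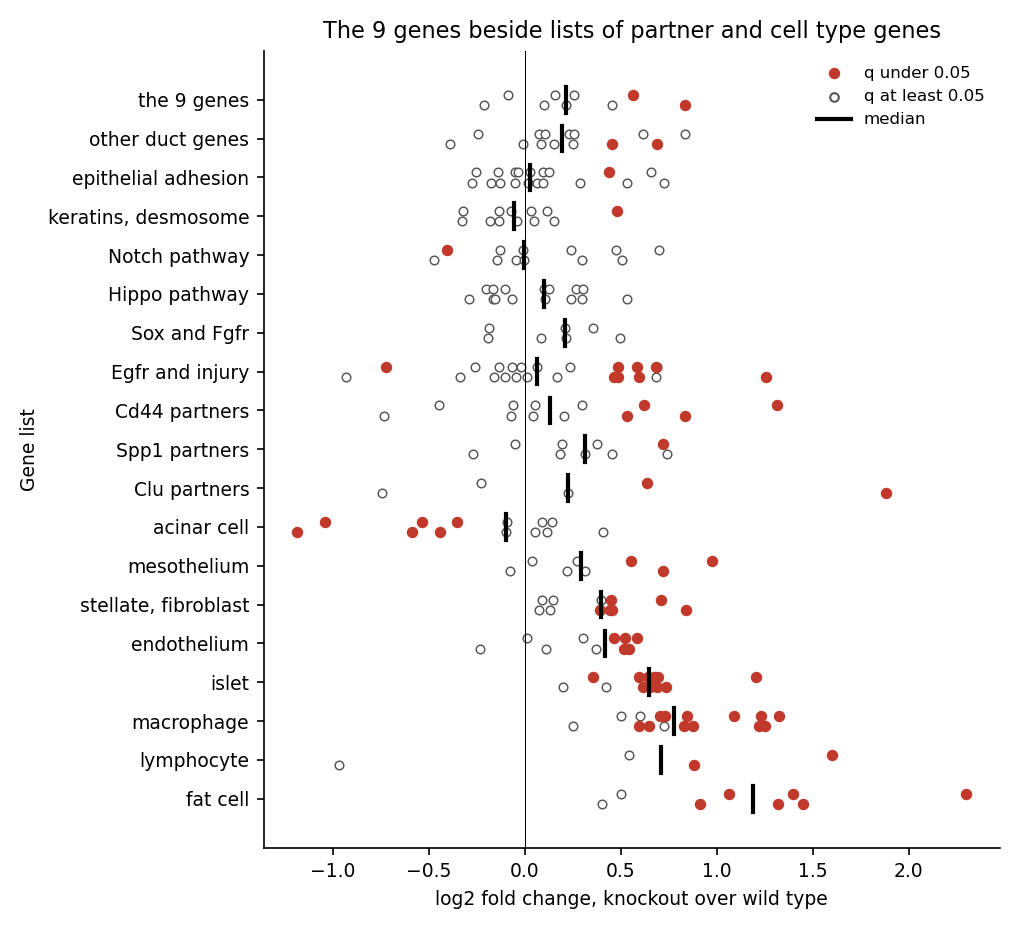
Log2 fold change, knockout over wild type (horizontal), of each tested gene in the set of 9 and in 18 lists of partner and cell type genes (vertical); filled points have q under 0.05 in the authors' deposited table, and bars are medians. The 9 genes have a median of 0.21, macrophage genes 0.78 and fat cell genes 1.19.

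Genes of other cell types, among them types that can express these markers, were mostly higher in the same knockout group. Of 16 macrophage genes the authors' deposited table called 12, all higher, and their summed level was 152 FPKM in OCaR1-/- and 86.8 FPKM in wild-type mice. They were led by Mpeg1, Lyz2, Ctss and Emr1, which rose between 2.33-fold and 2.51-fold. Mpeg1 and Emr1 lay under 1 FPKM in wild type (0.646 and 0.762 FPKM), so their direction was fixed by the limit named above. The gene of this list with the highest wild-type level, C1qa, had 27.3 FPKM in OCaR1-/- and 22.9 FPKM in wild-type mice without a call. Of 4 lymphocyte genes 2 rose, Igj (3.02-fold) and the leukocyte phosphatase gene Ptprc (1.84-fold), and the sums were 8.79 and 5.05 FPKM. Cd79b had 1.25 and 0.859 FPKM and Tcf7 0.821 and 1.61 FPKM in knockout and wild type. The same limit fixed the direction of Ptprc, Cd79b and Tcf7, and another 10 genes of the lymphocyte list were not analysed here. The 1.78-fold rise of Cd44 stood beside these values, and their part in it was not tested.

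Mesothelium, which carries keratins 7, 8, 18 and 19, had 3 of 8 genes called in the authors' deposited table, each higher, with sums of 21.7 FPKM in OCaR1-/- and 18.3 FPKM in wild-type mice. They were Rspo1 (1.96-fold), Upk1b (1.65-fold) and Lrrn4 (1.47-fold). Upk3b had 5.96 and 4.94 FPKM and Nkain4 5.60 and 5.90 FPKM in knockout and wild type. Of 11 stellate cell and fibroblast genes 6 rose and none fell (sums of 486 and 372 FPKM), among them Mgp (1.79-fold), Postn (1.63-fold), Dcn (1.37-fold) and Thy1 (1.37-fold). The collagen gene Col3a1, the most abundant of this list, had 269.7 FPKM in OCaR1-/- and 204.9 FPKM in wild-type mice and was not called (q = 0.382 by Cuffdiff). Of 10 endothelial genes 5 rose and none fell (88.7 and 69.9 FPKM), with Cdh5 (1.498-fold), Emcn, Tie1 and Pecam1 leading. Plvap, the most abundant of these in wild type, had 24.8 and 20.1 FPKM in knockout and wild type without a call (q = 0.0871). In 9 of the 10 endothelial genes the knockout value was the higher one. The exception, Kdr, had 3.86 and 4.54 FPKM without a call and was chosen for mention after its values were seen. Islet genes had 10 of 12 called higher (4123 and 2570 FPKM), led by G6pc2, Chga, Ins2 and Pcsk2. Fat cell genes had 6 of 8 called higher (197 and 89.3 FPKM), led by Retn, Cfd, Car3 and Cidec. In all 12 islet and all 8 fat cell genes the knockout value was the higher one. The most abundant fat cell gene, Fabp4, rose 1.885-fold, from 46.7 to 88.0 FPKM. No gene of these lists with a row in the table was listed at 0, and the part of these cell types in the calls of Sox9 and Cd44 was not tested.

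Acinar genes differed the other way from Sox9. Of 13 tested, the authors' deposited table called 6 lower and none higher, with a median of -0.10. Ptf1a, the factor that maintains acinar identity, fell from 40.9 FPKM in wild type to 27.2 FPKM in the knockout, and Gata4 fell from 18.9 to 13.01 FPKM. Among enzyme and granule genes Cela1, Pnlip and Sycn also fell, to 0.440, 0.487 and 0.735 of the wild-type level. The wider list of 31 digestive enzyme and inhibitor genes had 6 called higher, led by the trypsinogen genes Gm5771, Gm10334, Prss3 and Prss1, whose reads could be divided between close copies, and 3 lower. Krt8 and Krt18, the keratins of acinar cells, stood at 1.16 and 0.862 of the wild-type level without a call. Of 5 intestine and liver genes 1 was called, Alb, which fell to 0.538 of the wild-type level. The intestinal keratin gene Krt20 had 8.27 FPKM in OCaR1-/- and 7.65 FPKM in wild-type mice, the microvillus gene Vil1 1.36 and 2.07 FPKM, and Ttr 34.7 and 29.6 FPKM, all without a call.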

How the data were processed

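Pancreas RNA of 3 OCaR1-/- and 3 wild-type mice was sequenced as single reads after poly(A) selection, per the labels' protocols. STAR 2.5.1b, Cufflinks 2.2.1, Cuffdiff and build GRCm38 were used, per the submitters' processing notes. The deposited table gives FPKM values, 1 per genotype, with a deposited p-value and q-value for each gene. The number of columns of single samples is 0, so no test across mice could be made, and a gene is called at q under 0.05 in the authors' deposited table. Whether samples stand apart could not be examined.

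Fold changes were computed from the deposited FPKM values without a pseudocount (Python 3.11.15, pandas 2.3.3). Values under 0.01 FPKM count as listed at 0, and 37 tested genes got no fold change. Another 538 genes carry no test and were left out. The deposited starts were shifted to count from 1. The calculation was tested on simulated data.

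The 9 genes and the 20 gene lists were chosen with earlier results of these data known. Genes named are the 9, Tmem63a, up to 4 genes of each list with the smallest p, and for cell types the gene with the highest wild-type level. With 2 values per gene, likeness between genes was not computed.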

Additional observations from a re-analysis of the deposited data

How the results depend on the processing

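The 2 calls, Sox9 and Cd44, were also counted at q under 0.01, at q under 0.1 and with the deposited p-values adjusted again (Benjamini-Hochberg) over all tested genes (2 each). Among the 6 genes with at least 5 FPKM in either genotype, 0 were called by Cuffdiff and 2 had an unadjusted p under 0.05, since Sox9 and Cd44 lie below that level; the share called over all genes at that level was 8.53%. The median log2 fold change of the set, 0.21, was 0.21 with a pseudocount of 0.5, 0.13 among genes with at least 5 FPKM, 0.25 centred on the median of all tested genes, and 0.020 rescaled to equal FPKM outside the digestive enzymes. That rescaling lowers all log2 fold changes by 0.19 and turned Spp1 to -0.095 and Clu to -0.035. In the other 25 of 27 recomputed fold changes of single genes the sign was the same, but this count is no measure of stability. A pseudocount cannot change a sign, the centring raises every value by only 0.033, and the rescaling can turn only positive values. Over the lists, 76 of 236 tested genes were called and 86 at q under 0.1, beside 7.54% and 9.75% of all tested genes. Of the 76, 50 had at least 5 FPKM in either genotype. The lists were chosen with earlier results of these data known, so these counts describe them and do not test them. No paired analysis was possible because the table holds 1 value per genotype, and leaving out single mice was not run for the same reason. Read depth is unknown, and genes under 1 FPKM in both genotypes were not analysed here.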
